A study of Mus musculus with 3 samples.

Results

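The clustered protocadherins are the genes of the alpha, beta and gamma clusters that stand next to each other on a single mouse chromosome. Members were taken as array probes for a RefSeq transcript of a gene named Pcdha, Pcdhac, Pcdhb, Pcdhga, Pcdhgb or Pcdhgc with a number. The RefSeq gene table lists 58 such genes (14 alpha, 22 beta and 22 gamma), and 31 of them had a probe, 42 probes in all of the 41174 on the array. All 22 beta genes had a probe (27 probes), against 4 of the 14 alpha genes (6 probes) and 5 of the 22 gamma genes (9 probes). The 27 genes without a probe were not analysed here, so detection below covers the beta cluster in full and the other clusters in small part. The log2 ratios and the comparison of arrays cover the 14 beta, 3 alpha and 4 gamma genes that could be tested.

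The RNA came from primary mouse embryonic fibroblasts, cells grown from the connective tissue of embryos, taken at stage E12.5 and kept untreated in medium with 10% serum. One population is labelled SA1-null, a genotype without the cohesin subunit SA1 that the gene Stag1 encodes, and the other is labelled wild type. The sources used here give neither the strain, nor the allele, nor the number of embryos behind each culture. Each of 3 Agilent 2-colour arrays held 1 SA1-null sample in Cy3 and 1 wild-type sample in Cy5, and the arrays are numbered 1 to 3 in the labels as biological replicates. The dye orientation was the same on every array, so the effects of dye and of genotype cannot be told apart. Replicate 1 lay on a slide of its own and was read with another version of the scanner software than replicates 2 and 3, which shared a slide.

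Protocadherins are cadherin-like proteins of the cell surface that bind an identical protein on a neighbouring cell. In the alpha and gamma clusters each gene has its own promoter and its own large first exon, which is spliced to constant exons that the whole cluster shares. The beta genes have a single coding exon each and no constant part. In neurons most of these promoters are switched on at random in each cell, which gives a cell an identity that lets its branches tell themselves from those of other cells, and the C-type genes such as Pcdhac2 are switched on more regularly. CTCF and cohesin bind at most of the promoters and at distant enhancers and bring them together, which is the reason the clusters are looked at where a cohesin subunit is missing. The clusters are known mainly from the nervous system, and the cells measured here are fibroblast cultures.

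Stag1, the gene that the genotype names, went against the channel labels. Its normalised intensity was 1445, 2423 and 2399 in the channel labelled SA1-null on replicates 1, 2 and 3, against 143, 181 and 217 in the channel labelled wild type. Its log2 ratio was 3.52 ± 0.21 (SD, n = 3; adjusted p = 0.0273, limma), that is, higher in the channel labelled SA1-null on each array, as were all 4 kept probes of the gene. The adjusted p was 0.0649 with scale normalization between arrays and 0.0997 with no filter on dim probes, so the call did not hold there. Neither where the probe lies relative to the deleted part of Stag1 nor whether the channel labels are exchanged was tested. The channels are therefore called by their labels throughout. Every direction given below rests on those labels and would be inverted if they were exchanged. Over all 18488 genes with a probe that could be tested, 58 differed between the channels (0.314%), 2 higher (0.0108%) and 56 lower (0.303%) in the channel labelled SA1-null. That count was 284 without replicate 1, and 0 in limma without replicate 2 or replicate 3, with 1294 and 736 genes at an unadjusted p under 0.05. All 14 fibroblast markers were above background on every array. Of the 12 tested, 11 lay above 0, with a median log2 ratio of 0.71, 5 at an unadjusted p under 0.05 and 0 called by limma, and their summed normalised intensity ran from 425376 to 999124 in the channel labelled SA1-null, against 321391 to 397603 in the channel labelled wild type. All 20 macrophage and blood cell markers tested lay below 0, 11 of them called lower, with a median log2 ratio of -2.82, and their summed normalised intensity ran from 9169 to 41507 in the channel labelled SA1-null, against 76693 to 446745 in the channel labelled wild type. The part that either cell type has in the values of the protocadherins was not tested, and in bulk RNA fewer cells of a type and less RNA per cell cannot be told apart. Of 15 neuron and neural progenitor markers, 9 were above background on all arrays, and none of them passed the test. These 9 were Tubb3, Map2, Nefm, Elavl4, Stmn2, Gap43, Sox1, Sox2 and Pax6. Nefl, Syt1 and Snap25 fell short of that but were above background at least once. Elavl3, Dcx and Neurod1 were above background on no array.

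Part of the clusters gave a signal in these fibroblasts, and the beta genes that did lay in runs. A probe counts as detected where the scanner software flags it as well above background. Of the 42 probes, 27 (64.3%) were detected in at least 1 channel on all 3 arrays, against 58.6% of all 41174 probes. They stood for 21 genes, 3 alpha, 14 beta and 4 gamma, and of these 20 were detected in both channels on every array. The exception was Pcdhb7, detected on all 3 arrays in the channel labelled SA1-null and on replicates 1 and 2 in the channel labelled wild type. Along the beta cluster, Pcdhb1 and Pcdhb2 were not detected on all arrays, the 5 genes Pcdhb3 to Pcdhb7 were, the 6 genes Pcdhb8 to Pcdhb13 were not, and the 9 genes Pcdhb14 to Pcdhb22 were again. A gene was counted where any of its probes was detected, and Pcdhb8 to Pcdhb13 had 1 probe each. Within the runs, further probes of Pcdhb16 and Pcdhb17 were detected on all arrays, but those of Pcdhb5, Pcdhb15 and Pcdhb19 were not. The latter were detected on 1, 2 and 1 arrays in the channel labelled SA1-null, against 1, 2 and 0 in the channel labelled wild type. With probes counted where positive and significant against background, 25 genes stood in place of 21.

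**Figure D1:**
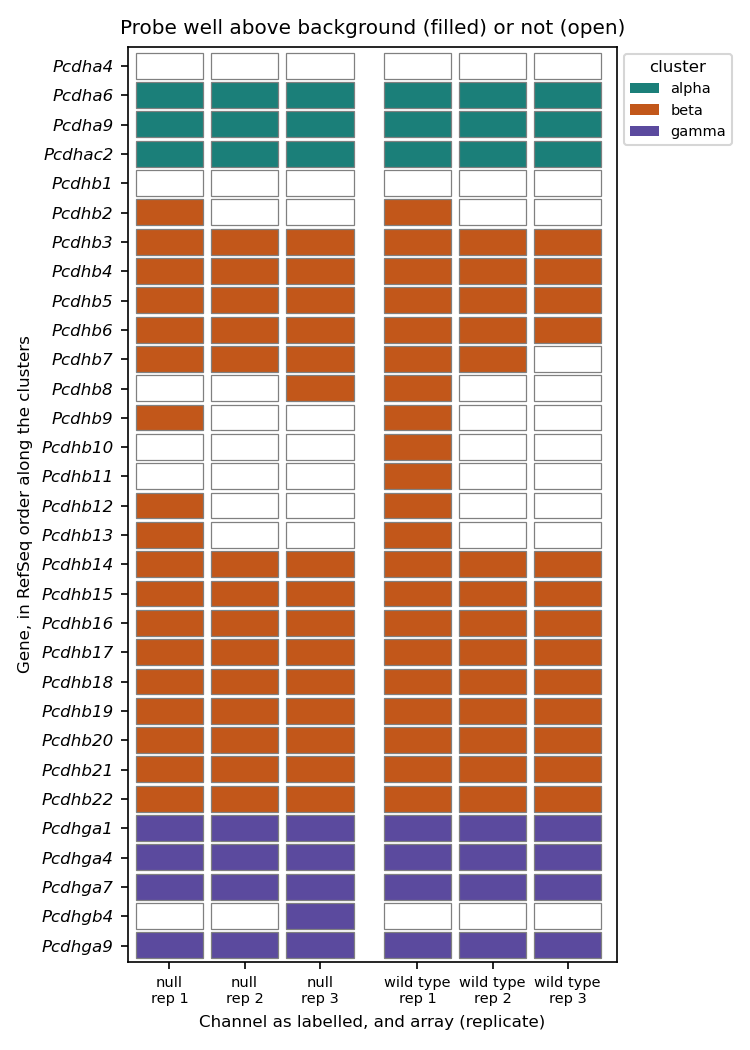
Detection of the 31 clustered protocadherin genes with a probe, in RefSeq order from top to bottom. Columns are the channel labelled SA1-null and then the channel labelled wild type on replicates 1 to 3, and a filled box means that the gene's most often detected probe was well above background there. The beta genes Pcdhb3 to Pcdhb7 and Pcdhb14 to Pcdhb22 fill their rows apart from 1 box of Pcdhb7, while Pcdhb8 to Pcdhb13 fill at most 2 boxes each.

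The 10 genes that were not detected on all arrays were seen mostly on replicate 1. Pcdha4 and Pcdhb1 were detected nowhere. On replicate 1, 4 of the 10 were detected in the channel labelled SA1-null and 7 in the channel labelled wild type, namely Pcdhb2, Pcdhb9, Pcdhb12 and Pcdhb13 in both and Pcdhb8, Pcdhb10 and Pcdhb11 in the channel labelled wild type alone. On replicate 2 none of the 10 was detected in either channel. On replicate 3, Pcdhb8 and the gamma gene Pcdhgb4 were detected in the channel labelled SA1-null and none in the channel labelled wild type. Counted over all 31 genes, 25, 21 and 23 were detected in the channel labelled SA1-null on replicates 1, 2 and 3, against 28, 21 and 20 in the channel labelled wild type. The order of the channels thus turned between replicate 1 and replicate 3. Over the whole array the share of probes detected was 60.7%, 60.6% and 66.0% in the channel labelled SA1-null, against 67.0%, 63.0% and 62.0% in the channel labelled wild type, which turned in the same way. The spots of these genes lay close to the background on replicates 2 and 3 and, for some, well over it on replicate 1. Pcdhb12, for example, had a median signal of 39, 31 and 31 over a local background of 23, 33 and 26 in the channel labelled SA1-null, against 169.5, 54 and 55 over 58, 52.5 and 54 in the channel labelled wild type. These genes were not tested between the channels, and none is called absent.

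Between the channels, none of the 21 clustered protocadherin genes passed the test. With limma, 0 of 21 were called at an adjusted p under 0.05, against 0.314% of all genes, and the smallest adjusted p among them was 0.656. Without adjustment 1 of the 21, Pcdhb3, had a p under 0.05, against 7.49% of all genes. The log2 ratio, SA1-null over wild type as labelled, lay above 0 for 13 genes and below 0 for 8, between -0.50 and 0.36, with a median of 0.04, against -0.02 over all genes. The median was 0.04 for the 3 alpha genes, 0.02 for the 14 beta genes and 0.11 for the 4 gamma genes. With the arrays centred on their medians in place of loess, the members' median was -0.16 and that of all genes -0.30, so the members' sign flips with the scaling while they lay 0.14 above all genes, against 0.06 above with loess. That distance from all genes was 0.02, 0.14 and -0.04 with loess when replicate 1, 2 or 3 was left out, so it rested on single arrays. On replicate 1 alone the members' median was 0.07, and over replicates 2 and 3 alone, on their shared slide, it was 0.0040. The sign was the same on all 3 arrays for 10 of the 21, 5 above and 5 below 0, against 32.4% of all genes. For none of the 21 did the channels' normalised intensities separate without overlap, against 8.94% of all genes.

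**Figure D2:**
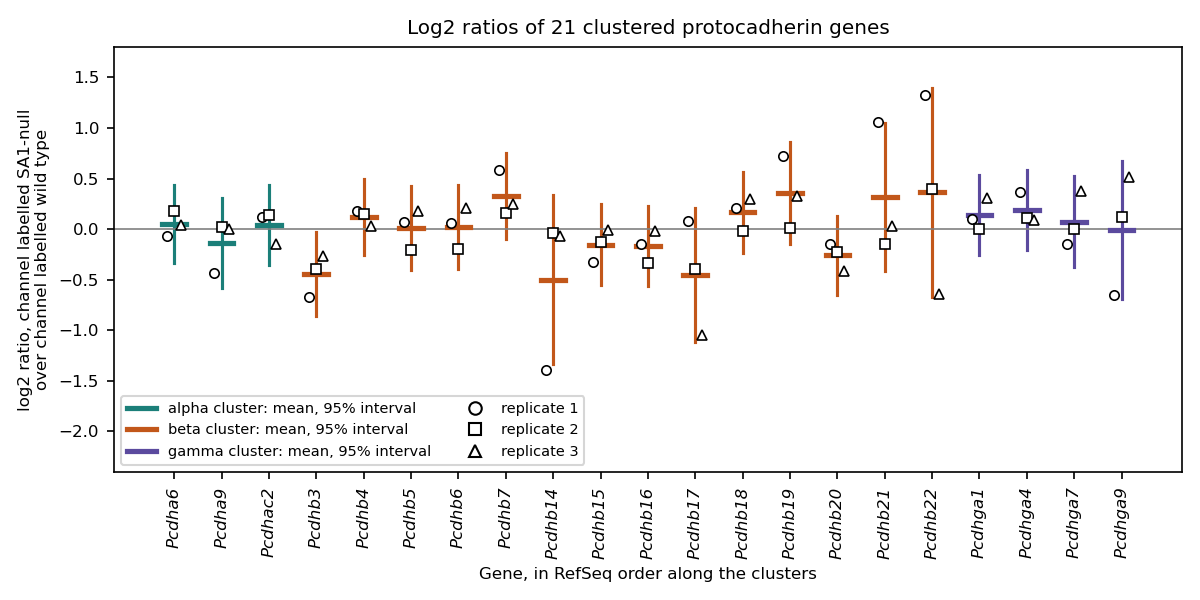
Log2 ratio, SA1-null over wild type as the channels are labelled, for the 21 clustered protocadherin genes tested, in RefSeq order. Open symbols are the 3 arrays, thick bars their mean and vertical lines limma's 95% interval. The means lie between -0.50 and 0.36, the interval of Pcdhb3 alone leaves 0 out, and replicate 1 (circles) lies far from the other arrays in Pcdhb14 and Pcdhb21, while the 3 arrays of Pcdhb22 are spread out.

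Under the main processing, with its offset of 50, these intervals bound the mean log2 ratio, and values under other processing can fall outside them. The 95% interval of the log2 ratio lay within 1 unit of 0, a doubling or halving, for 17 of the 21 genes, against 78.8% of all genes. The 4 genes whose interval reached further were Pcdhb14, Pcdhb17, Pcdhb21 and Pcdhb22. They lay in the run Pcdhb14 to Pcdhb22, whose other genes had intervals within 1 unit of 0. The widest bounds were -1.34 for Pcdhb14 and 1.39 for Pcdhb22. Pcdhb7 had a mean of 0.33 here, 0.66 with an offset of 0 and 1.09 with the processed signals of the scanner software. The last lay outside its interval of -0.10 to 0.75. Under the same settings Pcdhb19 moved from 0.36 to 0.57 and 0.84, and Pcdhb3 from -0.44 to -0.67 and -0.57. Pcdhb17 stayed near its -0.45, at -0.51 and -0.44. These intervals thus hold for the main processing alone. In data simulated with the spread of all genes, the test called 0% of genes made 2-fold different, 31.3% of those made 4-fold different and 63.6% of those made 8-fold different. The median SD was 0.32 over all genes and 0.21 over the 21 members, so these rates are not those of the members. A count of 0 among 21 genes from 3 arrays does not show that the channels were alike.

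The 3 alpha genes gave means near 0. Pcdha6, whose variable exon encodes 1 of the stochastically chosen alpha proteins, had a normalised intensity of 81.1, 101 and 98.1 in the channel labelled SA1-null on replicates 1 to 3, against 84.8, 89.9 and 95.2 in the channel labelled wild type, and a log2 ratio of 0.05 ± 0.12 (SD, n = 3). Pcdha9, of the same type, had 94.3, 101 and 101 in the channel labelled SA1-null, against 128, 99.2 and 101 in the channel labelled wild type, where replicate 1 stood above the other arrays. Its log2 ratio was -0.14 ± 0.26 with array values of -0.44, 0.03 and 0.0048. In both genes the channels overlapped. Pcdhac2, the C-type gene at the end of the alpha cluster, had 817, 155 and 115 in the channel labelled SA1-null, against 751, 141 and 127 in the channel labelled wild type. Both channels of replicate 1 were several times above those of replicates 2 and 3, while the log2 ratios of 0.12, 0.14 and -0.14 stayed small on each array (0.04 ± 0.16; 95% interval -0.36 to 0.44). The other kept probes of Pcdhac2 averaged -0.33 and -0.02, so the probes of this gene fell on both sides of 0.

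In the beta cluster the first run of detected genes, Pcdhb3 to Pcdhb7, held the member with the smallest p and genes with means near 0. Pcdhb3 had a normalised intensity of 157, 122 and 114 in the channel labelled SA1-null, against 249, 161 and 136 in the channel labelled wild type. The channel labelled SA1-null had the lower value on each array, with log2 ratios of -0.67, -0.40 and -0.26, yet the channels overlapped, since the 157 of the channel labelled SA1-null on replicate 1 lay above the 136 of the channel labelled wild type on replicate 3. Its mean log2 ratio was -0.44 ± 0.21 (SD, n = 3; 95% interval -0.86 to -0.03), with an unadjusted p of 0.041 and an adjusted p of 0.656 in limma, so it did not pass. Pcdhb4 had 106, 102 and 105 in the channel labelled SA1-null, against 93.6, 92.0 and 103 in the channel labelled wild type, with the smallest SD among the 21 genes (0.12 ± 0.08). Its spots were dim. On replicate 2 the median signal was 48.5 over a local background of 28.5 in the channel labelled SA1-null. In the channel labelled wild type it was 82.5 over 52.5. Pcdhb5 had 664, 262 and 329.5 in the channel labelled SA1-null, against 632, 302 and 291 in the channel labelled wild type. Pcdhb6 had 612, 187 and 233 in the channel labelled SA1-null, against 587, 215 and 201 in the channel labelled wild type. These neighbours had nearly the same array ratios, 0.07, -0.21 and 0.18 for Pcdhb5 and 0.06, -0.20 and 0.21 for Pcdhb6, with means of 0.01 ± 0.20 and 0.02 ± 0.21, and the mean of either gene lay below 0 with median centring or scale normalization. Pcdhb7 had 147, 95.4 and 94.5 in the channel labelled SA1-null, against 98.1, 85.5 and 79.8 in the channel labelled wild type, where replicate 3 was not well above background. It lay higher in the channel labelled SA1-null on each array (0.58, 0.16 and 0.24; mean 0.33 ± 0.22) and did not pass the test.

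The second run, Pcdhb14 to Pcdhb22, held the largest means in both directions, and several of them rested on 1 array. Pcdhb14 had 293, 131 and 123 in the channel labelled SA1-null, against 767, 134 and 129 in the channel labelled wild type. The 767 of the wild-type channel on replicate 1 stands apart, and the log2 ratios were -1.39, -0.04 and -0.07 (mean -0.50 ± 0.77; 95% interval -1.34 to 0.34). Without replicate 1 the mean was -0.05. With the slide fitted as a term Pcdhb14 was the only member called (log2 ratio -0.72, adjusted p = 0.0402, limma), in a fit that left 1 array alone on its slide and called 9.58% of all genes. Pcdhb17 had 1638, 548 and 359 in the channel labelled SA1-null, against 1551, 719 and 742 in the channel labelled wild type, with log2 ratios of 0.08, -0.39 and -1.05 and a mean of -0.45 ± 0.57, which was -0.16 without replicate 3 and -0.72 without replicate 1. Its other kept probe averaged 0.06, on the other side of 0. Pcdhb21 had 894, 168 and 159 in the channel labelled SA1-null, against 428, 186 and 156 in the channel labelled wild type. Its channels differed by more than 1 log2 unit on replicate 1 and hardly on the others (1.06, -0.15 and 0.04; mean 0.32 ± 0.65), and without replicate 1 its mean was -0.06. Pcdhb22, the last gene of the cluster, had 781, 644 and 307 in the channel labelled SA1-null, against 311, 489.9 and 477 in the channel labelled wild type. Its log2 ratios of 1.33, 0.40 and -0.64 went both ways and gave the largest SD among the 21 genes (mean 0.36 ± 0.98), and without replicate 1 the mean was -0.12.

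The other genes of that run varied less. Pcdhb15 and Pcdhb16 lay at or below 0 on each array, with log2 ratios of -0.32, -0.12 and -0.01 for Pcdhb15 (mean -0.15 ± 0.16) and -0.15, -0.33 and -0.02 for Pcdhb16 (mean -0.17 ± 0.16). Pcdhb20 lay below 0 on each array, with intensities of 646, 193 and 153 in the channel labelled SA1-null, against 714, 226 and 204 in the channel labelled wild type, and a mean log2 ratio of -0.26 ± 0.14 (95% interval -0.65 to 0.13). Pcdhb18 had log2 ratios of 0.21, -0.01 and 0.30 (mean 0.16 ± 0.16). Pcdhb19 had intensities of 201, 97.9 and 124 in the channel labelled SA1-null, against 121, 97.0 and 99.0 in the channel labelled wild type, and lay above 0 on each array (0.73, 0.01 and 0.33; mean 0.36 ± 0.36). Neighbours in the cluster thus lay on either side of 0, and none of these genes passed the test.

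In the gamma cluster, Pcdhga1, Pcdhga4 and Pcdhga7 had means above 0 and Pcdhga9 one at 0. Pcdhga1 had log2 ratios of 0.10, 0.0025 and 0.31 (mean 0.14 ± 0.16). Pcdhga4 had intensities of 168, 246 and 286 in the channel labelled SA1-null, against 131, 228 and 268 in the channel labelled wild type, and a mean log2 ratio of 0.19 ± 0.15 (95% interval -0.21 to 0.58). Unlike the beta genes with high values on replicate 1, Pcdhga4 had its lowest value of either channel on that array. A second probe of Pcdhga4, not kept, was well above background in neither channel on any array. Pcdhga7 had log2 ratios of -0.15, -0.0036 and 0.37 (mean 0.07 ± 0.27). Pcdhga9 had intensities of 33023, 18318 and 25054 in the channel labelled SA1-null, against 51734, 16916 and 17559.5 in the channel labelled wild type, with no saturated spot by the scanner's flag. Its log2 ratios of -0.65, 0.11 and 0.51 went both ways and averaged -0.01 ± 0.59, and its other kept probes averaged 0.0052 and 0.40. The probes of Pcdhga9 differed widely in brightness. In the channel labelled SA1-null, the probe at 0.0052 had 13542, 11324 and 17499 and the probe at 0.40 had 343, 260 and 607. A further probe, not kept, had 62.8, 80.4 and 85.7 there and was well above background on 2 arrays in each channel. Whether a probe of an alpha or gamma transcript lies in the gene's own exon or in the shared constant exons was not tested, and a probe in a constant exon would take in RNA of the whole cluster.

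**Figure D3:**
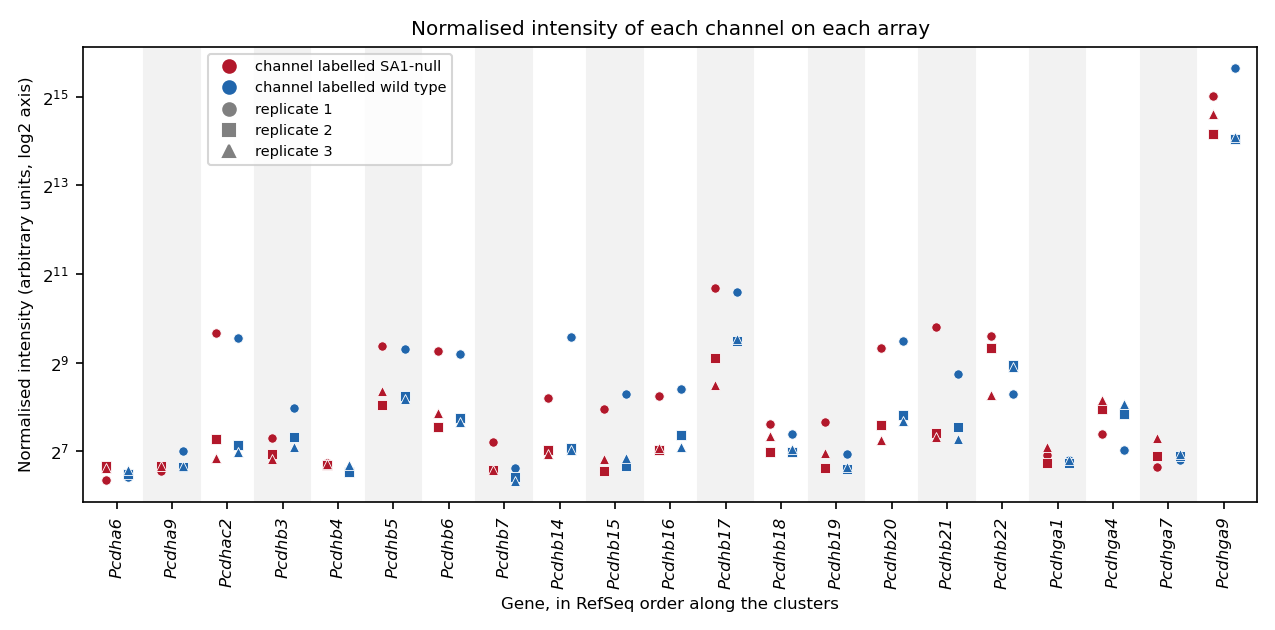
Normalised intensity (arbitrary units, log2 axis) of the 21 clustered protocadherin genes, with the channel labelled SA1-null left of the channel labelled wild type for each gene and 1 symbol per array. Different genes are read by different probes, so heights compare only within a gene. In genes such as Pcdhac2, Pcdhb6 and Pcdhb20 both channels of replicate 1 (circles) stand above replicates 2 and 3, while in Pcdhga4 they stand below.

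Many members, most of them beta genes, were brighter on replicate 1 in both channels. The comparison of replicate 1 with the other arrays was not among the planned results and was chosen after seeing the data. The mean of both channels' log2 normalised intensity, quantile-normalised between arrays, was set against that of replicates 2 and 3. It was over 1 log2 unit higher on replicate 1 for 10 of the 21 genes, against 10.2% of all genes, and over 1 unit lower for 0 of the 21, against 10% of all genes. The 10 were Pcdhac2, the 8 beta genes Pcdhb5, Pcdhb6, Pcdhb14, Pcdhb15, Pcdhb16, Pcdhb17, Pcdhb20 and Pcdhb21, and Pcdhga9. The difference was 2.55 for Pcdhac2, or 5.87-fold, and among the 8 beta genes it ran from 1.13 for Pcdhb5 to 1.89 for Pcdhb21. These values are those of each gene's brightest probe. The other kept probes of Pcdhac2 differed by 1.71 and 1.38, and those of Pcdhga9 by 0.53 and 0.03. The other kept probe of Pcdhb16 differed by 1.03 and that of Pcdhb17 by 1.38. The median over the 14 beta genes was 1.16, against -0.09 over all genes. In these 8 beta genes the difference was seen in either channel, from 1.18 in Pcdhb5 to 2.45 in Pcdhb21 in the channel labelled SA1-null and from 1.09 in Pcdhb17 and Pcdhb5 to 2.54 in Pcdhb14 in the channel labelled wild type. Pcdhb22 differed by 0.09, Pcdhb4 by -0.01 and Pcdhga4 by -0.79, so not every detected gene followed. With each array scaled by its median, a setting also chosen after seeing the data, 9 of the 21 were over 1 unit higher on replicate 1. Over all 18488 genes, 1409 were. Of the 10 genes named, Pcdhga9 dropped out at 0.41.

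**Figure D4:**
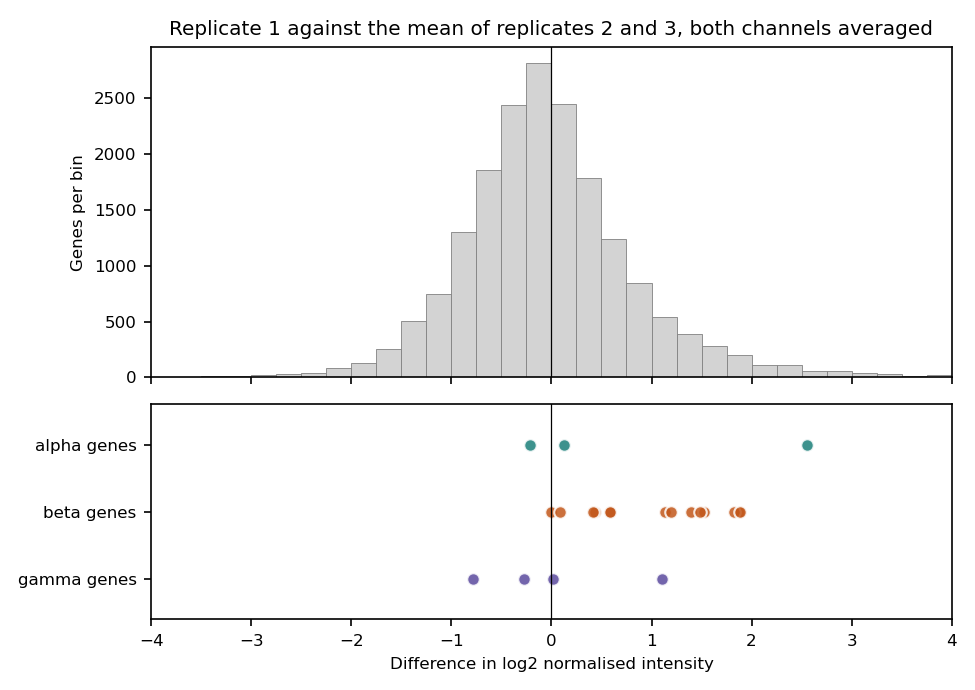
Log2 normalised intensity on replicate 1 minus the mean of replicates 2 and 3, with both channels averaged. The upper panel counts all 18488 genes in bins of 0.25 log2 units, with a few genes beyond the axis, and the lower panel marks the 3 alpha, 14 beta and 4 gamma genes. Of the 14 beta genes, 8 lie above 1, and Pcdhac2 lies at 2.55.

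This is a description of 1 array against the other 2 and carries no test. Replicate 1 also differed in slide and scanner software version, and these cannot be told apart from a difference between cultures. The macrophage and blood cell markers were higher on replicate 1 as well, by a median of 2.21 with 19 of 20 genes over 1 unit, as were 5 of 12 fibroblast markers, with a median of 0.86. With each array scaled by its median these were 16 of 20 macrophage and blood cell markers, with a median of 1.83, and 3 of 12 fibroblast markers, with a median of 0.21, against a median of 0.36 over the 21 protocadherins and -0.43 over all genes. The neuron and neural progenitor markers had a median difference of -0.52, with 3 of 9 over 1 unit. Among the 19 genes tested next to the clusters, 1 was over 1 unit higher and the median was 0.04. Of the 6 non-clustered protocadherins tested, 2 were over 1 unit higher, with a median of 0.03. The part of any of these in the protocadherin values was not tested.

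Genes that act on the clusters or with their products were read from the same fit. Of 18 tested regulators of the clustered promoters, among them the cohesin subunits Smc1a, Smc3 and Rad21, 14 lay above 0 and 4 below, with a median of 0.15, and Stag1 alone was called. Of 19 tested partners and effectors, 9 lay above 0 and 10 below, with a median of -0.02 and no call. The 3 with the smallest p were Lrp6, a Wnt co-receptor, at 0.45 ± 0.43, its relative Lrp5 at -0.26 ± 0.13, and Abi1, a subunit of the WAVE complex that drives actin branching, at -0.26 ± 0.18. None of the 6 non-clustered protocadherins tested was called, and those with the smallest p were Pcdh10 at -0.63 ± 0.84, Pcdh18 at 0.55 ± 0.82 and Pcdh7 at 0.38 ± 0.50. With the slide as a fixed term, which called 9.58% of all genes, Pcdh10 (-0.87, adjusted p = 0.0201) and Pcdh18 (0.79, adjusted p = 0.0312) were called in limma, and without replicate 1 their means were -0.15 and 0.08. Of 8 classical cadherins tested, 6 lay above 0 and none was called. Cdh11, the cadherin of mesenchymal cells, had 0.97 ± 0.60 with an adjusted p of 0.512, Cdh3 had 0.59 ± 0.42 and Cdh15, known from muscle precursors, had 0.53 ± 0.47 (SD, n = 3; limma).

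The genes around the clusters showed 1 call among the 19 tested. Of the 22 taken, 10 named coding genes on either side and Slc25a2 and Taf7 between the clusters, Slc25a2, Taf7 and Pcdh12 were not tested. The 19 had a median log2 ratio of -0.08, with 6 above 0 and 13 below. Cd14, a co-receptor for bacterial lipopolysaccharide that lies before the alpha cluster and is itself among the macrophage markers above, was lower at -1.97 ± 0.22 (SD, n = 3; adjusted p = 0.0410, limma). Its normalised intensity was 1528, 496 and 452 in the channel labelled SA1-null, against 5056, 2161 and 1898 in the channel labelled wild type, with no overlap. The call did not hold with median centring (adjusted p = 0.0576), with scale normalization (0.0885), with no filter on dim probes (0.119) or with no replicate block (0.0568). Without replicate 2 or replicate 3 no gene was called by limma, Cd14 included, and its log2 ratio ran from -2.10 to -1.90 with any 1 array left out.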

How the data were processed

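Per the file headers, the authors' scanner files hold spot and background intensity per dye, made by Agilent Feature Extraction 10.1.1.1 (replicate 1) or 10.7.3.1 (replicates 2 and 3), and a deposited log10 ratio of Cy5 over Cy3, which was not tested. The deposited table holds 1 log2 value per probe and array, made with limma per the submitters' processing notes. The sources used here do not give its background correction or centring. It ran as Cy5 over Cy3 (correlations of 0.985, 0.982 and 0.997 with the log2 ratios computed here; medians of -0.02, -0.02 and -0.01). Flags of the scanner software, deposited as other columns, gave detection.

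Median signals were corrected with normexp (offset 50) and loess within arrays in limma 3.58.1 under R 4.3.3, and ratios turned to SA1-null over wild type. Control spots and flagged spots (116, 125 and 207) were left out. Probes well above background in 1 channel on all 3 arrays were kept (24019), and the brightest stood for its gene (18488 genes). Normalised intensities include the offset and were quantile-normalised on the channel mean. Mean log2 ratios were tested against 0 with lmFit and eBayes, adjusted by Benjamini-Hochberg over all genes at 0.05. With 3 arrays a sign-turning test reaches a two-sided p of 0.25 at the lowest, so calls rest on the spread limma shares between genes. The test was tried on simulated data. Nothing states which embryos or cultures the arrays came from, so p-values measure the spread between these samples, which may be partly technical.

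Of the probes, 23374 matched a transcript in the RefSeq gene table of GRCm38.p6, used for names and gene order alone. Every detected member is named, then Stag1 and, per gene list, the called genes or else the 3 with the smallest p. The members and lists were chosen with earlier results of these data known. Alternatives covered background, normalization, filters, probes, variance model, pairing, slide and each array left out. Promoter and protein sequences of the members were not analysed here.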

Additional observations from a re-analysis of the deposited data

How the results depend on the processing

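The count of clustered protocadherin genes called was 0 under each alternative except the slide as a fixed term, which called 1, Pcdhb14 (log2 ratio -0.72), among 1772 genes. Over all genes the limma count of 58 became 34 with median centring, 92 with both channels above background, 118 without background subtraction, 132 at an adjusted p under 0.1, 142 with trend and robust, 160 with scale normalization between arrays, 185 with array weights, 265 with an offset of 0 and 326 with processed signals. With both channels as separate samples and no replicate block, 102 genes were called, and each array is otherwise its own pair. Without a filter on dim probes 0 were called in limma (1982 at an unadjusted p under 0.05), and leaving out 1 array gave 0 to 284, with 0 without replicate 2 or replicate 3 and 284 without replicate 1, and always 0 members. With the slide as a term 73.6% of the calls were lower in the channel labelled SA1-null, against 96.6%.

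The members' median of 0.04 was 0.13 with processed signals and with the deposited values and -0.16 with median centring, and ran from -0.069 to 0.11 with 1 array left out. Stag1 lay at 3.67 with scale normalization and at 3.52 without a filter, above the threshold in both (adjusted p = 0.0649 and 0.0997, limma), and from 3.40 to 3.61 with 1 array left out. Of 377 values of single members under alternatives, 23 had the other sign, in 9 genes, and 12 genes kept their sign throughout. Pcdhb6 turned to -0.22 with median centring, -0.014 with scale normalization and -0.11 with array weights, and Pcdhb5 to -0.25, -0.024 and -0.12 under the same settings. Pcdhga9 turned to 0.040 with scale normalization, 0.13 with the mean of all probes and 0.090 with array weights. Pcdhac2 turned to -0.0030 without background subtraction, -0.20 with median centring and -0.11 with the mean of all probes, and Abi1 to 0.026 with that mean. With 1 array left out the means ran from -0.071 to 0.13 for Pcdhb6, -0.069 to 0.12 for Pcdhb5, -0.27 to 0.31 for Pcdhga9, -0.011 to 0.13 for Pcdhac2, -0.055 to 0.55 for Pcdhb21, -0.077 to 0.18 for Pcdhga7, -0.22 to 0.015 for Pcdha9, -0.12 to 0.86 for Pcdhb22 and -0.011 to 0.11 for Pcdha6. The cause was not tested. Counting probes as detected where they were positive and significant against background gave 25 genes in place of 21. A paired fit of the ratios is the fit reported, since both channels share an array. The slide as a random block was not run, since replicate 1 is alone on its slide. Signal over background limits the untested genes and also the dimmer tested genes, such as Pcdha6, Pcdha9, Pcdhb4 and Pcdhb7. For the tested genes 3 arrays limit the precision as well.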
